A study of Mus musculus with 7 samples.

Results

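Killer lectin-like receptor genes encode the C-type lectin receptors by which natural killer (NK) cells and other innate lymphocytes read the surface of their neighbours. Members were the protein-coding genes of the GENCODE M21 annotation of mm10 whose names start with Klra, Klrb, Klrc, Klrd, Klre, Klrg, Klrh, Klri or Klrk, and 26 of 21938 coding genes qualified. All 26 lie on chromosome 6. No coding gene had a name starting with Klrh. The 11 Klra genes (the Ly49 receptors), the 5 Klrb genes (the NKR-P1 receptors) and 10 others (Klrc1, Klrc2, Klrc3, Klrd1, Klre1, Klrg1, Klrg2, Klri1, Klri2 and Klrk1) were read for open chromatin within the gene body and 5 kb on either side. Of these genes, 24 sit together in the NK gene complex between Klrb1a and Klra2 (chr6:128609227-131247362), a span of 2.64 Mb. Klrg1 and Klrg2 lie apart from it.

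The data were ATAC-seq peak lists of mouse bone marrow B-lineage cells. ATAC-seq sequences DNA that a transposase can cut, so a peak marks accessible chromatin. The 7 lists formed 7 groups of 1 library each, and the study asked how the ETS-family factor Erg acts in early B-cell development. WT pre-proB, proB and preB cells, successive stages towards the B cell, were labelled Ergfl/fl and carried floxed Erg alleles without Cre. Erg KO pre-proB cells, the sole library of that genotype, were labelled Rag1CreT/+;Ergdelta/delta, and had lost Erg through a Cre expressed from the Rag1 locus, which is active in lymphoid progenitors. Rescue pre-proB, proB and preB cells were labelled Rag1CreT/+;Ergdelta/delta;IgHVH10tar, and had lost Erg in the same way but carried a functional prearranged heavy chain allele. The mice were on a C57BL/6 background. According to the study's methods the sorted populations excluded cells bearing NK1.1, which Klrb1c encodes, or CD11c. The source names contradict the titles for all 3 Rescue libraries (proB for the library titled pre-proB, preB for proB, pre-proB for preB). Erg itself had 27, 36 and 29 regions in its gene body at the successive WT stages, 27 in Erg KO and 29, 30 and 30 in Rescue, but peaks outside the deleted exon check nothing about the deletion. Titles were followed, and values under the other reading are given where they bear on a comparison. With 1 library per group there was no spread between animals and no test, and every difference below is between libraries.

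NK cells balance activating against inhibitory receptors. Many Klra products and the CD94 (Klrd1) and NKG2A (Klrc1) pair bind MHC class I and inhibit, whereas Klrk1 encodes the activating receptor NKG2D, which binds stress-induced ligands. Some Klrb products bind Clec2 proteins. Klra17 encodes Ly49Q, which is known from plasmacytoid dendritic and myeloid cells. The NK lineage and the B lineage part from common lymphoid progenitors, and several Klra genes are known to have an additional promoter upstream of the main one.

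Overlapping peaks of the 7 lists were merged into 145247 regions, and 68 of them lay in the windows of the 26 genes. Each is written as its nearest member and a number in genome order, so that Klri1-1 is the first region at Klri1. The height of a peak is its summit fold, the deposited ratio of fragments stacked at the summit to the background of that library, each with 1 added. Stacks at called summits started at 10 to 12 fragments over backgrounds of 3.49 to 4.60. No called peak was narrower than 200 bp, so narrower stacks above that start may have been missed. A region without a peak is therefore not proven closed. Intervals in square brackets are exact Poisson intervals at the 95% level on the fragments at the summit. They cover counting error only.

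The most repeated sequence among the regions was an element of the Klra cluster. It is shown because, within WT, the regions holding its copies were all highest in proB. As it was chosen with that pattern known, the WT values given below describe the choice and are no separate result. Stretches of 121 to 122 bases on the minus strand of mm10, in the direction of the genes, were taken around the TGTGGTT letters of the Klra6 copy, and those aligned to it at the other genes were 90.1% to 98.4% identical to it over the whole stretch. They lay at chr6:130387012-130387132 for Klra1, chr6:130342223-130342343 for Klra3, chr6:129917689-129917810 for Klra5, chr6:130031752-130031872 for Klra6, chr6:130237840-130237960 for Klra7, chr6:130197686-130197806 for Klra9, all within regions of member genes, and at chr6:130288299-130288419 for Klra10, whose region is 5931 bp from the gene and so outside the 5 kb. Capitals mark TGTGGTT, the core letters of RUNX sites, searched on both strands. None of the 7 stretches touches an annotated exon.
Klra1: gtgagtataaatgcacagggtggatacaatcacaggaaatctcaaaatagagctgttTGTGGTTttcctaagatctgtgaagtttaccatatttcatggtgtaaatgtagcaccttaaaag
Klra3: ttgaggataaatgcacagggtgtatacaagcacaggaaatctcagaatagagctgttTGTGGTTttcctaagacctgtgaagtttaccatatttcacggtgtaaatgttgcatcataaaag
Klra5: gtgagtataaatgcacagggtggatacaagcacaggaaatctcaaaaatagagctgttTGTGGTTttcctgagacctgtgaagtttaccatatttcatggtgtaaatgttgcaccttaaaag
Klra6: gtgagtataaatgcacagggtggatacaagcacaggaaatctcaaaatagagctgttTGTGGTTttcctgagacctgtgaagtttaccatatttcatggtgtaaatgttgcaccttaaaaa
Klra7: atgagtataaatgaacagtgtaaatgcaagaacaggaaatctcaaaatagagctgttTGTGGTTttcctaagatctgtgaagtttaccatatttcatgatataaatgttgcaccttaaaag
Klra9: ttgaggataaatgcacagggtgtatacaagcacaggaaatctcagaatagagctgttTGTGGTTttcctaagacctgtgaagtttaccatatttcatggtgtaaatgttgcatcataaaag
Klra10: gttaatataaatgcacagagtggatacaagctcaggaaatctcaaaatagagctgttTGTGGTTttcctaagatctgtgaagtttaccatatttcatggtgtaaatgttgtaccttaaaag

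The letters TGTGGTT, around which the Klra6 stretch was chosen, stood at the same place in all 7 copies. They occur in 13.5% of all regions in the 300 bp around the summit. The copies are homologous, so this is 1 inherited sequence and not 7 separate observations. The middle of the stretch lay 198 bases (Klra1) and 99 bases (Klra5) before the nearest annotated start of the gene. For Klra3, Klra6, Klra7 and Klra9 the same sequence lay 4578 to 4858 bases before it.

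Single regions chosen for their position or role among those that differed between stages are shown as 200 bases in the direction of the gene. Klri1-1 (chr6:129713727-129713926, minus strand, intron 1) and Klrk1-1 (chr6:129606902-129607101, minus strand, downstream flank) are centred on the summit. Klrd1-1 (chr6:129591582-129591781, plus strand) and Klra17-5 (chr6:129876673-129876872, minus strand) end at the base before the annotated start. Capitals mark TGTGGTT (RUNX), CAGCTG (E-box) or CAGGAAG (ETS) on either strand.
Klri1-1: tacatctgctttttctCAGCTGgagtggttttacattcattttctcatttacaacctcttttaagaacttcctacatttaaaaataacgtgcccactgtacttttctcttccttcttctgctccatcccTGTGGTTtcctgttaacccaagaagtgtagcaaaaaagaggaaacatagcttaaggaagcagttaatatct
Klrd1-1: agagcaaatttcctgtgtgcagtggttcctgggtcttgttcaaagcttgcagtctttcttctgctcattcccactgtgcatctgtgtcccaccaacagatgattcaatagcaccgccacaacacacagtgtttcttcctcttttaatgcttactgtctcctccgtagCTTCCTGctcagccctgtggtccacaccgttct
Klra17-5: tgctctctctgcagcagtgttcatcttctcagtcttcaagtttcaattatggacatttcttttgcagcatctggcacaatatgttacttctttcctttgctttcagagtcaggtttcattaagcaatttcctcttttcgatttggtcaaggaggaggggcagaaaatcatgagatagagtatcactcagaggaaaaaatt
Klrk1-1: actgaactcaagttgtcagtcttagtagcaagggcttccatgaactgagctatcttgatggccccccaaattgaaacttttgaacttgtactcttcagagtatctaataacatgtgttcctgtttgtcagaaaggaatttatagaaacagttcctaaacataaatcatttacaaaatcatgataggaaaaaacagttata

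The Klri1-1 stretch held the RUNX letters and an E-box, and the Klrd1-1 stretch held the ETS letters on the other strand. Klra17-5 and Klrk1-1 held none of the motifs searched. Over all 68 member regions the RUNX letters occurred in 12 (17.6%, against 13.5% of all regions), the ETS letters CAGGAAG or CCGGAAG in 9 (13.2% against 22%) and the E-box in 14 (20.6% against 25.5%). The TCF/LEF letters CTTTGAT occurred in 4 regions (5.88% against 4.3%) and the T-box letters GGTGTGA in 4 (5.88% against 4.6%). Member regions were poorer in G and C, with a median of 41.5% against 48.3% over all regions. A match describes the letters alone.

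Peaks occurred at 23 of the 26 genes. Klrg1, Klrb1 and Klrc3 had none within 5 kb in any library. Klrc3 shares near-identical sequence with the regions at Klrc2, so its lack of peaks is uncertain. Member regions with a peak numbered 43, 39 and 30 at the successive WT stages. There were 46 in Erg KO, and 53, 40 and 36 in Rescue pre-proB, proB and preB. The pre-proB libraries were therefore the 3 highest and the preB libraries the 2 lowest, which is also the order of list length at the extremes, from 105649 peaks in Rescue pre-proB to 76465 in WT preB. With every list cut to 76465 peaks by score, the numbers became 35, 33 and 30 in WT, 33 in Erg KO and 34, 32 and 30 in Rescue.

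Promoter peaks, within 1 kb of an annotated start, were less common at these genes than at coding genes in general. They numbered 12, 9 and 6 of 26 in WT pre-proB, proB and preB, 13 in Erg KO, and 14, 10 and 9 at the successive Rescue stages. That is 23.1% to 53.8% of members, beside 61.4% to 65.5% of all coding genes. Altogether 15 members had a promoter peak in at least 1 library, and 5 (Klrg2, Klrd1, Klri2, Klra17 and Klra1) had one in all 7. Klrb1a-4 lies across the 1 kb limit, so that its peak counted as a promoter peak in some libraries and not in others.

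**Figure D1:**
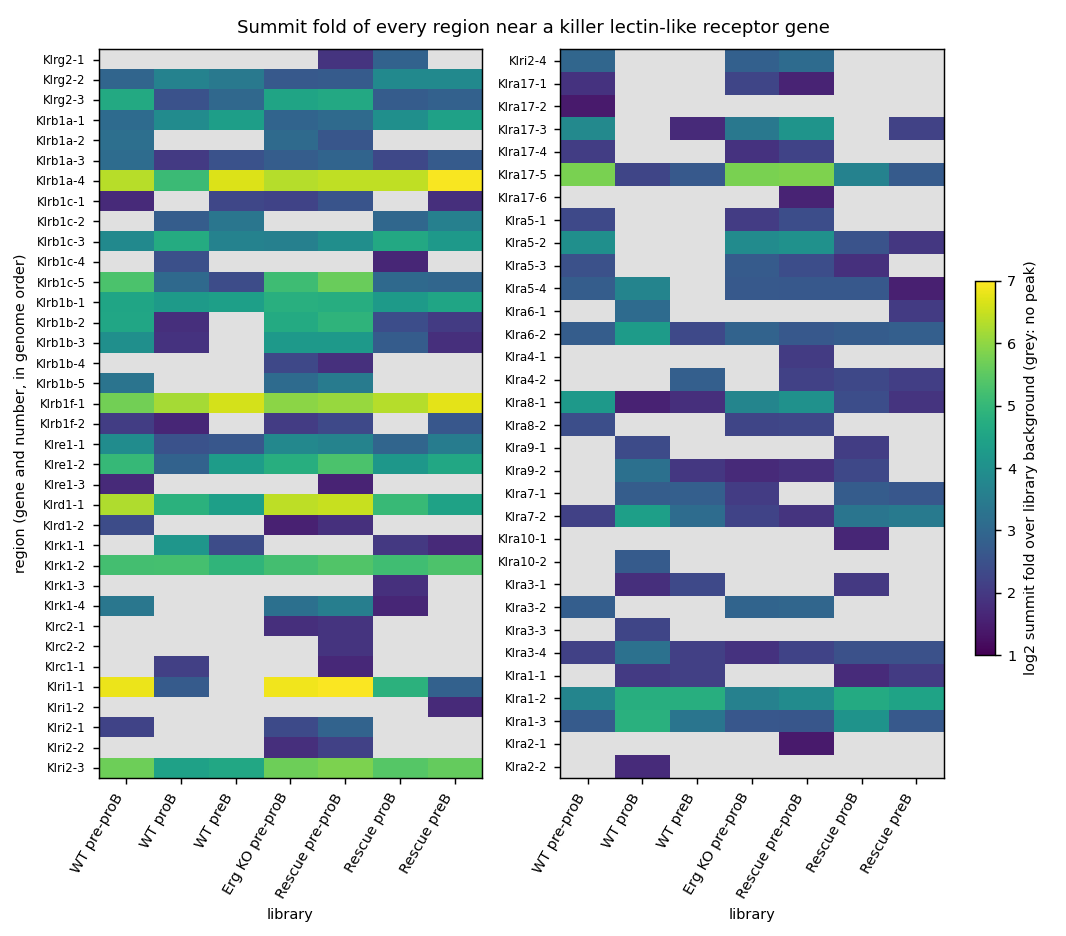
Log2 summit fold (colour) of the 68 regions near killer lectin-like receptor genes (rows, in genome order, read down the left panel and then the right) in the 7 libraries (columns), with grey for no peak. The 3 pre-proB columns resemble each other, and 10 regions are coloured in all 3 of those columns and in no other.

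Of the 68 regions, 21 (30.9%) had a peak in all 7 libraries, near the 32% of all regions. Another 19 (27.9%, against 22.5%) had peaks in pre-proB libraries alone, and 10 of those (14.7%, against 11.5%) had one in all 3 of them. Peaks in proB or preB libraries alone occurred at 13 (19.1%, against 23.5%). Promoters held 21 of the 68 regions, upstream flanks 19, introns 14, downstream flanks 11 and exons away from promoters 3. The nearest annotated start belonged to a gene outside the group at 9 regions.

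The first comparison asked how the locus changed from WT pre-proB to WT proB cells. Accessibility was lower in WT proB at Klrd1-1, Klri1-1, Klri2-3, Klre1-2, Klrb1b-2, Klrb1c-5 and Klra17-5, regions of NK receptor genes and of the Ly49Q gene, from 2.34-fold lower at Klri2-3 to 17.0-fold lower at Klri1-1. The regions holding the 6 copies of the homologous Klra element in the windows were all higher in WT proB, by more than 2-fold at each but Klra5-4. Of the 56 member regions with a peak in either library, 24 (42.9%, against 25.4% of all regions) were at least 2 times higher in WT pre-proB, a region without a peak being set to the lowest fold of that list. In the other direction 13 (23.2%, against 17.5%) were at least 2 times higher in WT proB. By presence alone, 17 regions (30.4%, against 26.3%) had a peak in WT pre-proB only and 13 (23.2%, against 23.5%) in WT proB only. With peaks of a −log10 q of at least 10 alone, 15 were higher in WT pre-proB and 5 in WT proB, and in gene bodies alone 16 and 5. The median log2 ratio of WT proB to WT pre-proB was -0.46 over member regions and -0.11 over all regions.

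By family, beside the 17.5% and 25.4% of all regions that were at least 2 times higher in WT proB and in WT pre-proB, the counts were as follows. Of the 26 Klra regions compared, 10 were at least 2 times higher in WT proB and 8 in WT pre-proB. Of the 15 Klrb regions, 2 were higher in WT proB and 7 in WT pre-proB, and of the 15 regions of the other genes 1 and 9. Several of the Klra regions are homologous copies, and differences between families were not tested. Among the 26 regions with a peak in both libraries, counting intervals lay apart at 13 (50%, against 23.8% of all regions) higher in WT pre-proB and at 9 (34.6%, against 20.1%) higher in WT proB.

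Klri1-1 (chr6:129712731-129714369), in intron 1 of Klri1, whose product pairs with that of Klre1 on NK cells, had the widest stage difference. WT pre-proB had a summit fold of 113 [104 to 123], WT proB had 6.65 [4.69 to 9.17], and WT preB had no peak. The fold was 117 in Erg KO, 126 in Rescue pre-proB, 29.0 [24.2 to 34.4] in Rescue proB and 7.22 in Rescue preB. The intervals of the 3 pre-proB libraries overlapped, and the proB libraries differed 4.36-fold.

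Klra17-5 (chr6:129876206-129877193) covers the start of the Ly49Q gene. WT pre-proB had a fold of 55.8 [49.6 to 62.7], WT proB 4.80 [3.17 to 6.998] and WT preB 6.36. The fold was 55.9 in Erg KO and 56.8, 12.7 and 6.60 in Rescue pre-proB, proB and preB. The 3 pre-proB values lay within 1 fold unit of each other, far above the other 4.

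Klrd1-1 (chr6:129591247-129592457) covers the start of the gene of CD94, the common partner chain of the NKG2 receptors. Its fold was 77.9 [70.5 to 85.9], 28.6 [24.3 to 33.5] and 21.04 in WT pre-proB, proB and preB. The Erg KO value was 84.1, and the Rescue values were 89.7, 32.7 and 22.1 in stage order. This promoter was open in all 7 libraries and lower at both later stages in both genotypes.

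Among the Klrb genes, Klrb1c-5 (chr6:128789577-128790223), upstream of the gene of NK1.1, had folds of 39.5 [34.3 to 45.4], 8.31 [6.09 to 11.1] and 5.26 at the successive WT stages. The Erg KO fold was 35.2, and the Rescue libraries had 49.7, 8.24 and 7.84. Klrb1b-2 (chr6:128826560-128827443), before the start of the gene of the inhibitory receptor NKR-P1B, had 23.5 and 3.51 in WT pre-proB and proB and no peak in WT preB. Erg KO had 25.5, and the Rescue libraries 30.0, 5.35 and 4.13. Klrb1c-5 and Klrb1b-2 were high in every pre-proB library and low or without a peak elsewhere, in populations from which the sort had removed cells bearing NK1.1. Other Klrb1c regions were higher in WT proB. Klrb1c-3 had 14.3 in WT pre-proB and 25.8 in WT proB, and Klrb1c-2 and Klrb1c-4 had no peak in WT pre-proB and 6.83 and 5.54 in WT proB.

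Klra5-2 (chr6:129914863-129915525), in intron 1 of the Ly49E gene, had a fold of 15.9 in WT pre-proB and no peak in WT proB or WT preB. It had 14.8 in Erg KO, and 16.3, 5.79 and 3.92 in the Rescue libraries. Klrk1-4, at the start of the NKG2D gene, had 10.5 in WT pre-proB, 9.34 in Erg KO, 11.8 in Rescue pre-proB and 3.12 in Rescue proB, with no peak in WT proB or in either preB library.

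Klra8-1, in intron 6 of the gene of Ly49H, an activating receptor that recognises a cytomegalovirus protein, had 18.8, 2.95 and 3.51 in the WT libraries in stage order. It had 13.2 in Erg KO and 16.3, 5.35 and 3.71 in the Rescue libraries. Klra8-1 has 5 near-identical copies, the best of them 98.34% identical over 301 bp and at the pseudogene Klra11-ps. How much of the Klra8-1 signal belongs to Klra8 is therefore uncertain. Klrg2-3, upstream of Klrg2 and outside the complex, was also highest in the pre-proB libraries, with 24.8, 5.72 and 8.11 in WT, 22.7 in Erg KO and 24.5, 6.68 and 7.22 in Rescue. The Klrc genes, which encode the NKG2 chains that pair with CD94, had weak peaks alone. Klrc1-1 had 4.43 in WT proB and 3.22 in Rescue pre-proB, Klrc2-1 had 3.48 in Erg KO and 3.75 in Rescue pre-proB, and Klrc2-2 had 3.75 in Rescue pre-proB. Klrc2-1 and Klrc2-2 each have a copy at Klrc3 that is 99.67% identical. The share of their signal that belongs to Klrc2 or to Klrc3 is therefore uncertain.

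Not every region in the complex differed by stage. Klrk1-2, downstream of Klrk1, had 37.0, 37.3 and 30.2 in the WT libraries, 36.6 in Erg KO and 41.1, 35.9 and 40.02 in the Rescue libraries. Klrb1b-1, downstream of Klrb1b, ranged from 19.2 in Rescue proB to 27.5 in Erg KO.

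**Figure D2:**
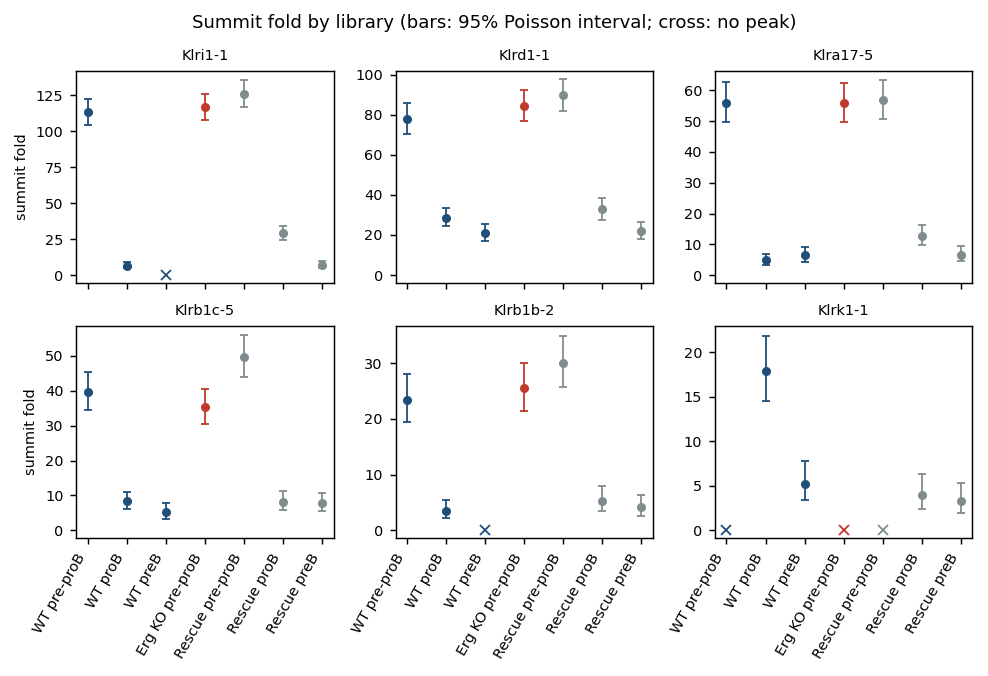
Summit fold (linear axis) of 6 named regions in each of the 7 libraries, with 95% Poisson intervals as bars, crosses at 0 for no peak, blue for WT, red for Erg KO and grey for Rescue. Klri1-1, Klrd1-1, Klra17-5, Klrb1c-5 and Klrb1b-2 are highest in the 3 pre-proB libraries, and Klrk1-1 is highest in WT proB at 17.9.

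The regions higher in WT proB were led by Klrk1-1 (chr6:129606645-129607492), between Klrk1 and Klrd1. It had no peak in the 3 pre-proB libraries, a fold of 17.9 [14.5 to 21.8] in WT proB and 5.26 in WT preB, and 4.01 and 3.30 in Rescue proB and preB. Next came regions holding copies of the homologous Klra element. Klra7-2, upstream of the Ly49G gene, rose from 4.46 [2.87 to 6.65] in WT pre-proB to 21.05 [17.4 to 25.3] in WT proB. Klra1-3, at the start of the Ly49A gene, rose from 6.59 [4.60 to 9.18] to 28.1 [23.8 to 32.9], and Klra6-2 from 6.78 [4.76 to 9.40] to 19.6 [16.04 to 23.7]. Klra9-2 had no peak in WT pre-proB and 9.23 in WT proB.

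The regions holding the remaining copies changed less. Klra5-4 had 6.78 and 13.1, and Klra3-4 had 4.46 and 9.42, in WT pre-proB and WT proB. Counting intervals lay apart in each of the 5 regions with a peak in both libraries. The 121 bases themselves were under a WT proB peak at every copy, whereas at Klra3 and Klra9 they were under no WT pre-proB peak. In WT preB the 5 of these regions with a peak had folds between 3.95 and 10.1, though the Klra9 stretch itself was under no peak, and Klra5-4 had none.

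Outside WT proB the regions holding the element were lower. Their folds lay between 3.30 and 7.51 in Erg KO and between 3.57 and 6.25 in Rescue pre-proB, and the Klra3 stretch itself was under no peak in either. In Rescue proB they were 16.9 at Klra1-3, 10.02 at Klra7-2, 6.68 at Klra6-2, 6.24 at Klra5-4, 5.57 at Klra3-4 and 4.90 at Klra9-2, each below its WT proB value. In Rescue pre-proB Klra5-4, Klra6-2 and Klra3-4 had 6.25, 6.25 and 4.65, near their Rescue proB values. Klra1-3, Klra7-2 and Klra9-2 had 6.08, 3.75 and 3.57 there, below their Rescue proB values. In Rescue preB the regions holding the element reached at most 11.1, at Klra7-2. The Klra10 copy outside the window followed the same order, with 4.85, 18.6 and 4.38 at the successive WT stages and 6.90 in Rescue proB. How reads were placed among near-identical copies is not given in the sources used here, so the share of signal that belongs to each copy is uncertain. Klra3-4 and Klra9-2 have a copy that is at least 95% identical over at least 50% of their 300 bp, and the other 4 do not. That limit does not make the other 4 free of the problem. Klra6-2 is 94.97% identical to its copy at Klra5, and the Klra5 stretch is 98.36% identical to that of Klra6.

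**Figure D3:**
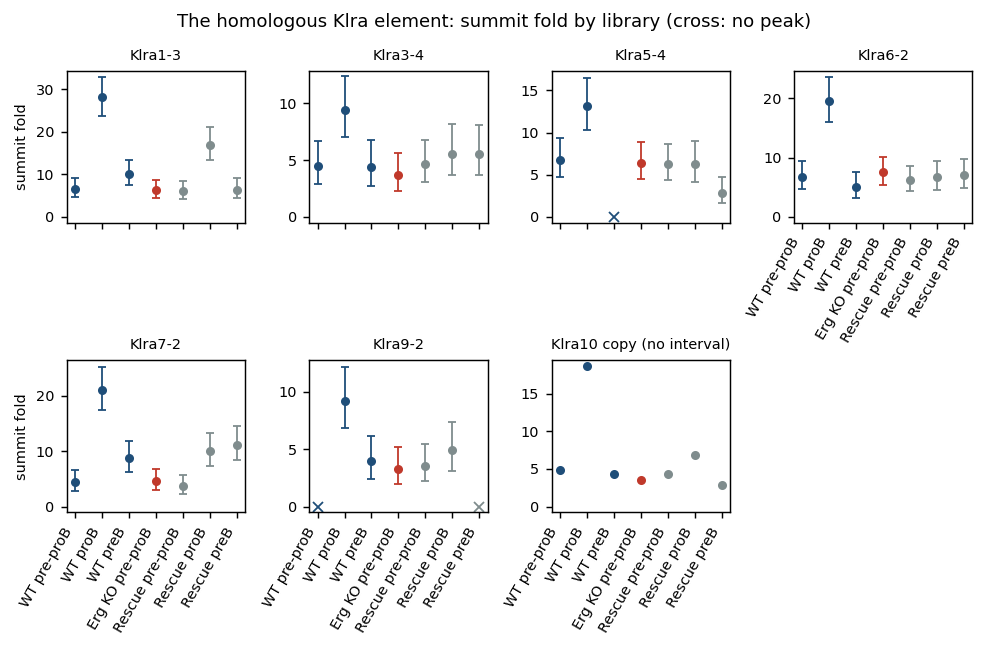
Summit fold (linear axis, its own scale in each panel) of the regions holding the 6 copies of the homologous Klra element in member windows and the Klra10 copy beyond 5 kb, in the 7 libraries, with 95% Poisson intervals as bars where computed, crosses at 0 for no peak, blue for WT, red for Erg KO and grey for Rescue. WT proB is the highest library in every panel, from 9.23 to 28.1 at the 6 copies.

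Another family of homologous Klra sequences, 87.1% to 96.3% identical, lay 2647 to 4564 bp before the starts of Klra6, Klra9, Klra3 and Klra10. It had a WT proB peak at all 4 sites, with folds of 8.49 at Klra6-1, 6.65 at Klra10-2, 5.17 at Klra9-1 and 4.80 at Klra3-3, and no peak in WT preB or in any pre-proB library. Klra6-1 also had a peak in Rescue preB (4.13) and Klra9-1 in Rescue proB (4.23). These were weak peaks, and they shared sequence as well. Homologous Klra sequences did not all share this order. A larger group of 5 regions went both ways from WT pre-proB to WT proB, with Klra17-5 from 55.8 to 4.80 and Klra1-2 from 13.4 to 27.1. Klra5-2 and Klra8-1, in further groups, were highest in pre-proB within WT.

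From WT proB to WT preB more member regions were lower than higher. Of 42 regions compared, 12 (28.6%, against 12.8%) were at least 2 times higher in WT proB and 4 (9.52%, against 6.44%) in WT preB. Peaks in WT proB alone numbered 12 (28.6%, against 24.4%), and peaks in WT preB alone 3 (7.14%, against 8.01%). The largest differences towards WT proB were Klra5-4 (13.1, then no peak), Klra6-2 (19.6, then 5.04), Klrk1-1 (17.9, then 5.26) and Klra6-1 (8.49, then no peak). Of the 12, 8 were Klra regions, beside 19 Klra regions among the 42 compared. All of the 12 but Klri1-1 had been higher in WT proB than in WT pre-proB. Both comparisons use the same WT proB library, so a high value there alone would give both differences, and they are not separate results. With a −log10 q of at least 10 the counts were 6 and 2, and in gene bodies alone 5 and 1.

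Some regions went the other way. Klrb1a-4 (chr6:128623776-128625028), upstream of the NKR-P1A gene, was high in every library but WT proB, with 81.8 in WT pre-proB, 33.8 [29.1 to 39.0] in WT proB and 102 [93.1 to 112] in WT preB. It had 80.3 in Erg KO and 85.4, 85.8 and 124 in the Rescue libraries. Klre1-2, in intron 4 of Klre1, had 32.2, 7.38 and 19.9 in the WT libraries in stage order and 39.3, 18.0 and 24.1 in the Rescue libraries. Klrb1f-1, in intron 1 of Klrb1f, was higher at each later stage, with 52.7, 73.7 and 97.3 in WT and 67.4, 79.96 and 109 in Rescue. Its summit lay 594 bp from the start of the antisense gene Gm44000 and 3340 bp from that of Klrb1f. Klra4-2 and Klrb1c-1 were the other 2 regions at least 2 times higher in WT preB, with 7.01 and 4.82 and no peak in WT proB.

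The comparison of Erg KO with WT pre-proB asked whether loss of Erg altered these genes. Of 48 regions compared, 0 were at least 2 times higher in Erg KO (background 1.25%) and 0 in WT (background 1.43%). Of the 41 regions with a peak in both, 0 had counting intervals apart in either direction (background 1.06% and 0.51%). The ratios of Erg KO to WT at those 41 ran from 0.56 at Klrd1-2 to 1.39 at Klrb1c-1, with a median of 0.93. Peaks in Erg KO alone numbered 5 (10.4%, against 12.5%), the highest of them Klrb1b-4 with a fold of 4.95, and peaks in WT alone numbered 2 (4.17%, against 5.58%), the highest with 3.30. The regions named above for their high pre-proB values, from Klri1-1 to Klrb1b-2, differed between these libraries by less than their counting intervals.

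Rescue pre-proB against WT pre-proB gave the same counts past the fold. Of 54 regions, 0 were at least 2 times higher in Rescue (background 1.72%) and 0 in WT (background 1.42%). Ratios at the 42 shared regions ran from 0.67 at Klrb1a-2 to 1.79 at Klrb1c-1. Counting intervals lay apart at 1 of these 42 (2.38%, against 4.5%) in the direction of Rescue and at 0 (against 0.383%) in that of WT. The 1 was Klrb1f-1, with 67.4 [60.8 to 74.5] in Rescue and 52.7 [46.7 to 59.4] in WT. Peaks in Rescue alone numbered 11 (20.4%, against 14.7%) and peaks in WT alone 1 (1.85%, against 4.6%), and none of the 11 exceeded a fold of 4.47. With lists of equal length these became 1 and 2. Under the stage given by the source name the library compared would be the one titled preB, and 25 regions would pass the fold.

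**Figure D4:**
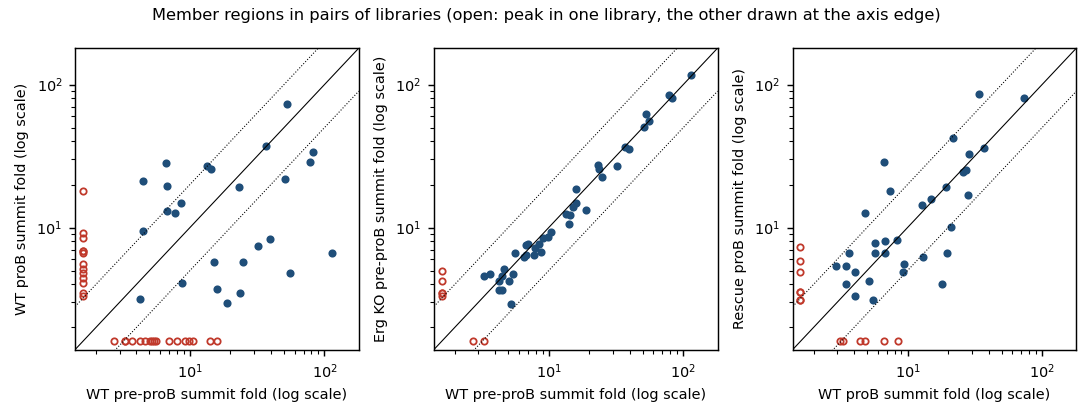
Summit folds (both axes on a log scale) of member regions in 3 pairs of libraries, with filled points for regions with a peak in both, open points at the axis edge for a peak in 1 library, a solid line at equality and dotted lines at 2-fold. Filled points scatter widely between WT pre-proB and WT proB, and stay within the dotted lines between WT and Erg KO pre-proB. They leave the lines in both directions between WT and Rescue proB. Open points can lie outside the lines in any panel, as their place at the edge is not a measured fold.

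At the proB stage Rescue and WT differed in both directions. Of 46 regions, 7 (15.2%, against 9.84%) were at least 2 times higher in Rescue proB and 6 (13%, against 10.1%) in WT proB. Peaks in Rescue alone numbered 7 (15.2%, against 16%) and in WT alone 6 (13%, against 17.5%). With folds divided by the median over shared promoters, 6 regions were higher in Rescue proB and 8 in WT proB, with a −log10 q of at least 10 the counts were 4 and 4, and in gene bodies alone 4 and 1. By source name the library compared would be the one titled pre-proB, with 24 and 14. Higher in Rescue proB were Klri1-1 (29.0 against 6.65), Klrg2-1 (7.35 against no peak), Klra17-5 (12.7 against 4.80) and Klrb1a-4 (85.8 against 33.8). Higher in WT proB were Klrk1-1 (17.9 against 4.01), Klra6-1 (8.49 against no peak), Klra6-2 (19.6 against 6.68) and Klra10-2 (6.65 against no peak). Klri2-3, at the start of Klri2, had 42.5 [36.7 to 49.0] in Rescue proB and 21.8 [18.1 to 26.1] in WT proB, beside 51.0 and 56.1 in WT and Rescue pre-proB.

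These values share the WT proB library with the stage comparison and are set side by side only. The change from pre-proB to proB could be read separately within the Rescue libraries, which share no library with the WT pair. There 20 of 62 member regions (32.3%, against 27.8%) were at least 2 times higher in Rescue pre-proB and 5 (8.06%, against 12.1%) in Rescue proB. Of the 24 regions at least 2 times higher in WT pre-proB than WT proB, 17 (70.8%) passed 2-fold the same way in Rescue, as did 82.3% of all such regions. Of the 13 higher in WT proB, 4 (30.8%) did, beside 51.1% of all such regions. For the 24 the median log2 ratio of proB to pre-proB was -1.98 in WT and -1.50 in Rescue, and for the 13 it was 1.44 and 0.78.

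At the preB stage few regions differed. Of 38 regions, 2 (5.26%, against 5.18%) were at least 2 times higher in Rescue preB and 1 (2.63%, against 2.03%) in WT preB. Peaks in Rescue alone numbered 8 (21.1%, against 16.2%) and in WT alone 2 (5.26%, against 6.6%). The 2 were Klri1-1 (7.22 against no peak) and Klrb1f-2 (6.19 against no peak), and the 1 was Klra3-1 (5.04 against no peak). With a −log10 q of at least 10 no region passed in either direction. Klri2-3 came just under the limit, with 48.1 [42.1 to 54.6] in Rescue preB and 24.1 [19.8 to 29.0] in WT preB, a ratio of 1.99.

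**Figure D5:**
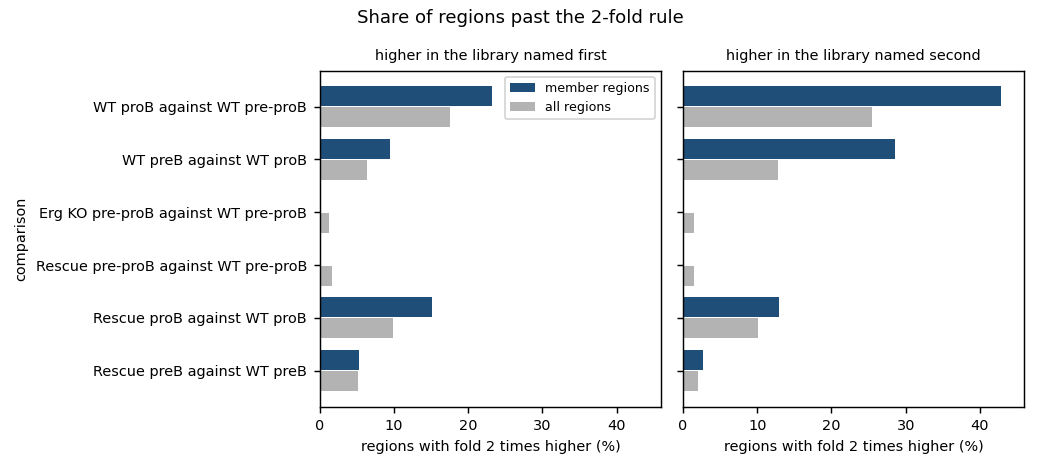
Percentage of regions (horizontal axis, from 0) whose summit fold was at least 2 times higher in the library named first (left) or second (right) in each of 6 comparisons, for member regions (blue) and all regions (grey). The widest gap between blue and grey is for regions higher in WT pre-proB than WT proB, 42.9% against 25.4%, and both blue bars are 0 for Erg KO and Rescue pre-proB.

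The 5 kb limit cut through the locus. A region 5496 bp beyond Klri2 had folds of 127, 21.8 and 21.5 in the WT libraries in stage order, 123 in Erg KO and 131, 47.7 and 40.2 in the Rescue libraries, highest in the pre-proB libraries as at Klri2-3. A region 6750 bp from Klrb1c went the other way, with 16.7, 74.6 and 75.8 in WT, 12.5 in Erg KO and 13.8, 48.3 and 67.7 in Rescue. Just inside the limit, Klra3-1 lay 4998 bp and Klrb1b-1 4715 bp from the gene, with WT proB folds of 3.51 and 19.2.

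Other genes of the NK programme were read by their promoter peaks. Of 12 NK markers, 7, 6 and 4 promoters had a peak at the successive WT stages, 7 in Erg KO, and 9, 7 and 4 in the Rescue libraries. Ncr1, which encodes the NK receptor NKp46, Gzmb and Fasl had none in any library. The cytotoxic granule genes Gzma and Nkg7 were open in some. Gzma had 6.83 in WT proB, 4.11 in Rescue pre-proB and 16.04 in Rescue proB, and Nkg7 had 7.95, 8.06 and 8.399 in WT, Erg KO and Rescue pre-proB, 4.80 in WT proB and 3.56 in Rescue proB. Xcl1, a chemokine gene, had 6.59, 9.16 and 8.76 in the pre-proB libraries and 2.90 in Rescue proB. Il2rb, the receptor chain for IL-15 and IL-2, had 5.23, 6.23 and 7.15 in the pre-proB libraries and no promoter peak elsewhere. Other NK markers had a promoter peak in all 7 libraries. From WT pre-proB to WT proB, Prf1, the perforin gene, went from 14.9 to 29.5, Itga2 from 22.7 to 31.8, Cd244a from 15.5 to 16.8 and Ifng from 10.9 to 7.02.

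Of 13 genes of receptor adaptors and signalling, 10 or 11 promoters had a peak in every library. Those of Hcst, Tyrobp and Fcer1g were lower after the WT pre-proB stage, whereas those of Ptpn6, Inpp5d and Plcg2 were higher. Hcst, which encodes DAP10, the partner of NKG2D, had folds of 30.6, 12.4 and 5.70 in the WT libraries, Tyrobp, which encodes DAP12, had 143, 46.7 and 53.0, and Fcer1g had 23.1, 6.65 and 5.70. Zap70 and Sh2d1a had no promoter peak. Of 12 regulators of NK and innate lymphoid cells, 10 to 12 promoters had a peak in each library. Tbx21, which encodes T-bet, had one in WT proB (5.17), WT preB (4.16) and Rescue proB (5.12) and in none of the pre-proB libraries. Zbtb16, which encodes PLZF, had 4.07, 5.50 and 4.82 in the pre-proB libraries and 4.46 in Rescue proB. Of 14 ligand genes for these receptors, 9 to 12 promoters had a peak. Among 12 neighbours in the NK gene complex, 8 had a promoter peak in each pre-proB library and 5 or 6 in the others. Clec9a, a dendritic cell receptor gene, had 81.6 in WT pre-proB, 77.5 in Erg KO and 93.8, 31.6 and 29.3 in the Rescue libraries, with none in WT proB or preB.

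Markers of other cells that the pre-proB gate could hold did not share 1 order of stages. All 10 plasmacytoid dendritic markers had a promoter peak in each pre-proB library and 9 in each other library, and Cox6a2 had one in pre-proB libraries alone (6.59, 7.70 and 6.26). Their summed promoter folds were 489.5 to 562 in the pre-proB libraries, 312 and 396 in WT and Rescue proB, and 499 and 515 in WT and Rescue preB. T markers numbered 6, 8 and 8 of 10 in WT, Erg KO and Rescue pre-proB, 6 in each proB library and 3 and 4 in WT and Rescue preB, and their sums were 155 to 178, 183 and 139, and 111 and 126. Myeloid sums were 105 to 125 in the pre-proB libraries, 53.7 and 83.5 in proB and 45.4 and 72.2 in preB, with 5 to 7 of 10 promoters open. NK marker sums were 83.8 to 105, 96.7 and 77.3, and 49.3 and 62.3. The part of such cells in the values above was not tested, and fewer cells of a type and weaker accessibility per cell cannot be told apart in bulk libraries.

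Summed promoter folds of the B markers ran the other way. They were 138 to 162 in the pre-proB libraries and 421 to 559 in the others. Of the 10 B markers, 9, 6 and 7 promoters were open in WT, Erg KO and Rescue pre-proB, and all 10 in the proB and preB libraries. Single markers differed. Cd22 had 30.4, 38.4 and 25.0 in the WT libraries in stage order, 35.4 in Erg KO and 40.4, 18.9 and 22.1 in the Rescue libraries. Cd79a had 11.4 in WT pre-proB, no peak in Erg KO and 3.57 in Rescue pre-proB, beside 80.1 and 59.0 in WT and Rescue proB.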

How the data were processed

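Each of the 7 libraries, 1 in each group, had a peak list in narrowPeak layout. Per the study's methods the authors aligned reads to mm10 with Bowtie2 and called peaks with MACS2, and the submitters' processing notes also name Picard and CASAVA 1.8.2. Not given in the sources used here are their options and how reads with several placements were treated, which decide how signal is divided among the Klra copies. The methods name sonication and the labels Tn5. In the score column the authors deposited 10 times the −log10 q. The summit fold deposited by the authors is a ratio with a pseudocount of 1, and in each list all folds were integer steps of 1 constant (within 0.02), which returned the background and summit pileups. The deposited −log10 p was not used. Read totals are unknown, and the background pileup, 3.49 to 4.60, stands for relative depth.

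Peaks overlapping by 1 bp were merged. Genes and starts came from GENCODE M21, sequences from GRCm38 (mm10) with samtools 1.23.1 and pysam 0.24.0, and copies from BLAST+ 2.17.0 (near-identical: at least 95% identity over at least 50% of the 300 bp around the summit). The Klra stretches were aligned with Biopython 1.88. Other steps used Python 3.11.15, NumPy 2.4.6, pandas 2.3.3 and SciPy 1.17.1. Ratios set a region without a peak to the lowest fold of its list. Counting of shared and changed regions was tested on simulated lists. In each comparison up to 4 regions per direction were named by size of ratio, with others picked by place or role. Members, gene lists and motifs were chosen with earlier results of these data known. Alternatives were a −log10 q of at least 10, lists of equal length, gene bodies alone, 50% reciprocal overlap, no near-identical copies, promoter-median scaling, and Rescue stages from source names. One marker result is not reported here.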

Additional observations from a re-analysis of the deposited data

Results flagged for a closer look

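Signal outside the genes described above was seen at pseudogenes of the same families, within 5 kb of them and outside the windows of coding members. Klrb1-ps1 had 4 such regions. All 4 had a peak in WT proB, with a highest fold of 6.83, and 1 had a peak in each of the 3 pre-proB libraries, with highest folds of 5.23 in WT, 6.23 in Erg KO and 6.61 in Rescue. It had none in the preB libraries or in Rescue proB. Klra11-ps had 2 regions with peaks in all 7 libraries, with highest folds from 16.3 in Rescue proB to 24.8 in Rescue preB. Klra13-ps had 5 regions, among them the Klra10 copy of the homologous element, with a highest fold of 18.6 in WT proB and between 5.98 and 13.7 in the other libraries. Klra14-ps had 1 region, with folds of 3.49, 4.58 and 3.40 in WT, Erg KO and Rescue pre-proB and 3.34 in Rescue proB. No region passed 2-fold in opposite directions between successive stages in WT and in Rescue.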

How the results depend on the processing

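No paired analysis was possible because each group held 1 library. Of 98 counts recomputed under 7 alternatives, 61 stayed within 1.5 times the main count and 37 did not. In gene bodies alone there were 33 member regions in place of 68, with 25, 16 and 14 in WT pre-proB, proB and preB, 27 in Erg KO and 28, 20 and 17 in the Rescue libraries. Regions with a peak in 1 library of the pair, in gene bodies alone, were 15 for WT proB against WT pre-proB, 4 for WT preB against WT proB, 4 for Erg KO, and 5, 4 and 3 for Rescue pre-proB, proB and preB against WT. Regions past 2-fold were then 21 for WT proB against WT pre-proB, 6 for WT preB against WT proB, 5 for Rescue proB and 1 for Rescue preB, since fewer regions were compared. With a −log10 q of at least 10, regions past 2-fold were 20 for WT proB against WT pre-proB, 8 for WT preB against WT proB, 8 for Rescue proB and 0 for Rescue preB, and unshared regions were 4 for Rescue pre-proB and 6 for Rescue preB. With lists of equal length, Rescue pre-proB had 34 member regions, and unshared regions were 4 for Erg KO pre-proB and 3 for Rescue pre-proB. With 50% reciprocal overlap they were 48 for WT proB against WT pre-proB, 13 for Erg KO pre-proB, 22 for Rescue pre-proB and 21 for Rescue proB. Without near-identical copies they were 4 for Erg KO pre-proB. With Rescue stages from source names, unshared regions were 21 for pre-proB and 36 for proB, and regions past 2-fold were 25, 38 and 6 for pre-proB, proB and preB. The balance between directions turned in 7 of 66 counts: unshared regions of Erg KO and of Rescue pre-proB, Rescue proB both ways, and Rescue pre-proB by source name. The cause of these changes was not tested.

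Scaling by shared promoters shifted log2 ratios by 0.13 for WT preB against WT proB and for Rescue pre-proB against WT pre-proB, and by less than 0.1 in the other 4 comparisons. The lowest called summits had 10 to 12 fragments, and a region without a peak need not lie below that. No replicate, no read totals and no placement rule for repeated sequence were available, so neither the spread between animals nor the signal of a single Klra copy could be measured.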
